A study of Homo sapiens with 15 samples.

Results

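The nuclear-encoded genes of the respiratory chain and ATP synthase were followed in IMR90, a human fibroblast line from fetal lung, as oncogenic RAS drove them into senescence and as METTL14 was then depleted and put back. Members were all rows of the gene table whose Ensembl ID belongs to a protein-coding gene with a symbol starting in NDUF followed by A, B, C, S or V, in UQCR, in COX4 to COX8 or in ATP5, together with SDHA, SDHB, SDHC and SDHD. This gave 98 members of 57736 genes, with 46 in complex I, 4 in complex II, 9 in complex III, 19 in complex IV and 20 in complex V. The complex I set includes 8 assembly factors, whose symbols start in NDUFAF, and NDUFA4 and NDUFA4L2 were placed in complex IV, where the NDUFA4 protein is now assigned. CYC1, a catalytic subunit of complex III, has a symbol outside the rule and is given with the related genes.

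The 15 libraries, every one from IMR90, form 5 groups of 3. The control group carried a retrovirus without RAS and was given a siRNA with no target (siControl). All other groups carried a retrovirus expressing RAS. They were siControl RAS cells, RAS cells treated with siRNA against METTL14 and a vector (called knockdown here), and RAS cells with the same siRNA and a lentivirus for wild-type METTL14 or for its R298P mutant (the wild-type and R298P add-backs). Transfection with siRNA began 4 days after the retrovirus and was repeated a day later together with the lentivirus, and cells were collected 48 hours after that. The labels call the groups knockouts and knock-ins, whereas the protocols describe siRNA and lentivirus, and the protocols were followed. Separate cultures are not stated for the 3 libraries of a group, and p-values then measure only the spread between these libraries, which may be technical.

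The respiratory chain passes electrons from NADH (complex I) and succinate (complex II) through ubiquinone to complex III, then through cytochrome c to complex IV, which reduces oxygen. Complexes I, III and IV pump protons across the inner mitochondrial membrane, and complex V, the ATP synthase, uses the return flow to make ATP. Each complex except II joins subunits from nuclear genes with subunits encoded by mitochondrial DNA, so both genomes contribute, and assembly factors that do not stay in the finished complex put the parts together. Genes of mitochondrial DNA were not analysed here.

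Libraries held 4917661 to 7763084 counts (median 5853195), of which the members took 1.19% to 1.41%. The libraries were made with a 3′ end kit, so a count is a tag near the end of a transcript and counts do not grow with transcript length. METTL14, the siRNA target, was at 19.07, 21.25 and 23.29 CPM (counts scaled to library depth) in control. It was at 26.15, 19.3 and 20.5 CPM in siControl RAS and at 9.347, 4.939 and 3.939 with METTL14 siRNA and vector. The wild-type add-back held 508.5, 563.6 and 564.2 CPM and the R298P add-back 891.7, 906.6 and 1038 CPM, so METTL14 followed the labels for siRNA and add-back. These levels do not check which libraries carry RAS or which add-back holds the R298P change. In a principal component analysis replicate 1 of the knockdown stood apart on the third component (4.97% of the variance) and the third libraries of siControl RAS and both add-backs on the fourth (4.53%). Results that change without them are marked below. Single calls were followed only for members named by the rule given with the processing of the data.

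The labelled cell type was checked against marker lists. All 8 fibroblast markers were detected, at a summed 10550 to 10730 CPM in control, 21740 to 22750 in siControl RAS and 17930 to 18680 in knockdown. They did not all move the same way. In siControl RAS against control 6 were called higher and 2 lower, and in knockdown against siControl RAS 2 higher and 4 lower. CDH1, KRT5 and KRT14 of 8 epithelial markers, CDH5 and ERG of 4 endothelial ones, CD3E and LYZ among the 5 leukocyte ones and MYH7 and MYL2 of 6 striated muscle ones had no counts in any library. Summed epithelial markers were at 135.4 to 147.7 CPM in control, 37.61 to 58.44 in siControl RAS and 81.49 to 91.76 in knockdown, and summed endothelial ones at 13.6 to 19.8, 23.57 to 29.97 and 30.71 to 37.42. Both moved with the groups in the results below, and their part in those results was not tested.

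Across the 15 libraries the members were well expressed. Of the 98 members, 90 passed the low-count filter, at a median of 112.6 CPM against 19.8 CPM for all 13516 genes tested. The highest of each complex were ATP5F1E (644.2 CPM over all libraries) and ATP5MG (498.9) for complex V, COX4I1 (550.8) and COX8A (337.3) for complex IV, UQCRB (513.6) and UQCR11 (459.1) for complex III, NDUFS5 (403.3) and NDUFB9 (206.7) for complex I, and SDHC (67.8) and SDHA (65.2) for complex II. With 1 tag per transcript these levels can be set side by side only roughly, since differences between genes in mapping and tag capture were not checked. By these counts the complex II genes were the lowest of the leading pairs. The 8 members that were not tested include tissue-restricted isoforms of complex IV. COX4I2, COX6A2 and COX7B2 were at 0 in all libraries, as was the read-through gene NDUFC2-KCTD14, which over all libraries allows a level of up to 0.0339 CPM. The testis isoforms COX6B2 and COX8C had 13 and 1 counts in total, the intronless UQCRH copy UQCRHL had 39, and the read-through gene ATP5MF-PTCD1 had 2.

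The first comparison asks how these genes stand in RAS-induced senescence with METTL14 left in place. Against control, siControl RAS libraries had 18 members higher and 30 lower, and 42 were not called (edgeR's quasi-likelihood test, Benjamini-Hochberg adjusted p under 0.05 over all genes tested, 3 libraries against 3). That is 53.3% of the tested members, against 45.9% of all genes tested, so the count is to be read against a broad response to RAS. The share called lower was 33.3% for the members and 21.9% for all genes, and the share called higher 20.0% and 24.0%. Among genes of at least 10 CPM, which match the members better in level, the shares were 34.9% and 28.0% lower and 20.5% and 29.6% higher. The median log2 change of the members was -0.12, with a median of -0.0037 over all genes tested. Summed over all members, the TMM-scaled level was 13013 ± 300.5 CPM in control and 12580 ± 108.7 in siControl RAS (SD, n = 3), or 96.7% of control. As a plain share of each library's counts, with no TMM factor, the members took 1.339% to 1.414% in control and 1.185% to 1.203% in siControl RAS, and these ranges do not overlap. How far the summed level lay below control therefore depended on the scaling. All levels here are relative to the library they come from, and fewer cells of a type and less RNA per cell cannot be told apart.

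**Figure D1:**
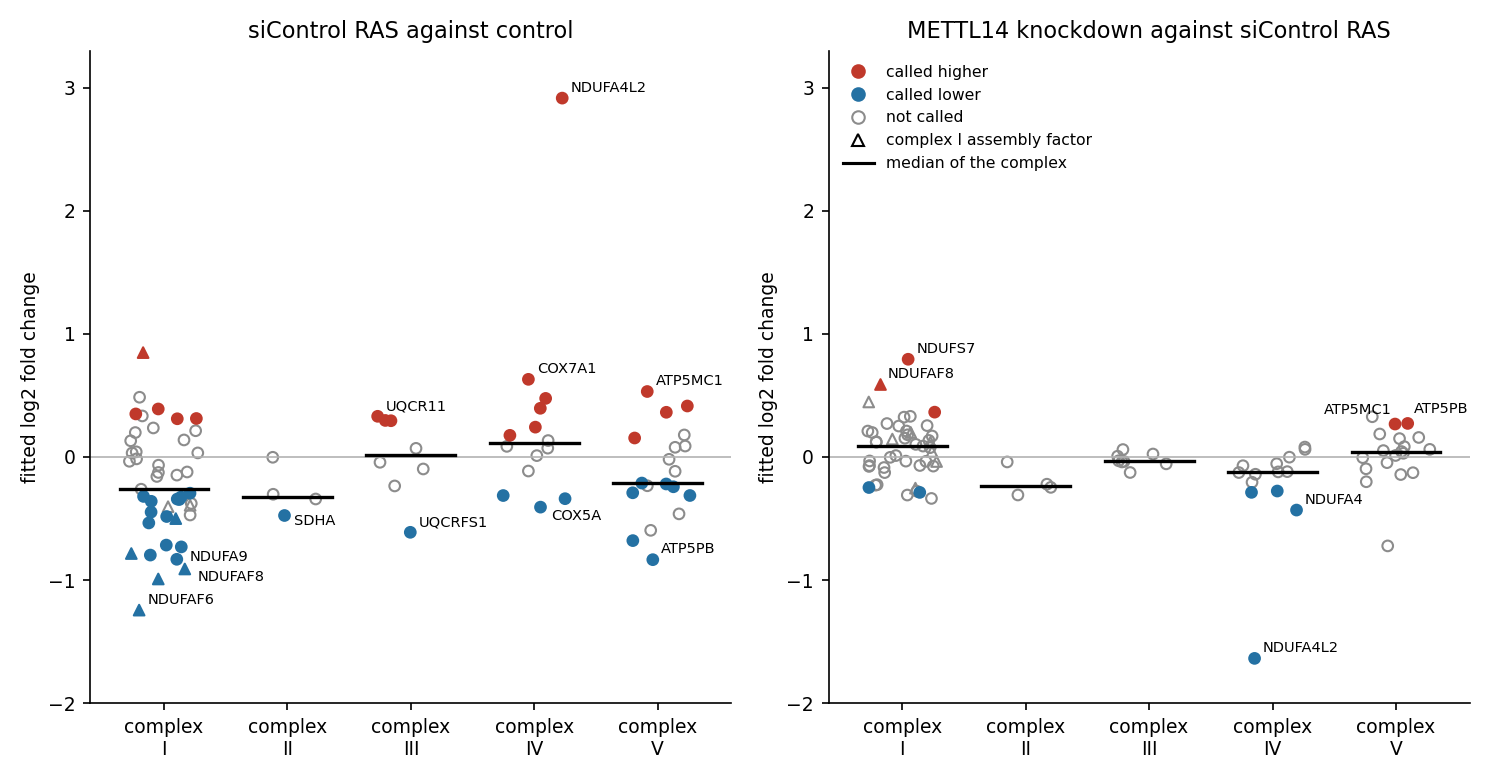
Fitted log2 fold change (vertical axis) of the 90 tested members by complex (horizontal axis), for siControl RAS against control (left) and METTL14 knockdown against siControl RAS (right). Filled points passed an adjusted p under 0.05 (red higher, blue lower), open points did not, triangles are complex I assembly factors and bars are medians. In the left panel complex I and V points lie mostly below 0 and complex IV points mostly above, with NDUFA4L2 at 2.92. In the right panel 4 of the 14 tested complex IV members are called, all lower.

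In complex I, 18 of 45 tested members were lower and 5 higher in siControl RAS, with a median log2 change of -0.26. Complex V had 7 of 19 lower and 4 higher (median -0.21), and complex II had 1 of 4 lower and none higher (median -0.32). Complex III had 3 of 8 higher and 1 lower (median 0.01), and complex IV had 6 of 14 higher and 3 lower (median 0.11). Scaling by library size alone, without TMM factors, moved the median of all genes by -0.148 and turned the split of 18 higher and 30 lower into 8 and 40. The medians were then -0.41 for complex I, -0.471 for II, -0.135 for III, -0.0385 for IV and -0.36 for V, so whether complex III and IV lay above or below 0 depended on the scaling, and the differences between complexes were not tested. Without the third libraries of siControl RAS and both add-backs the complex V median was -0.0821. Without siControl RAS replicate 3 alone it was -0.0919, and the complex III median was then -0.00326.

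The largest decreases of complex I were among its assembly factors. Of 8 tested, 5 were lower and 1 higher, with a median log2 change of -0.64. NDUFAF8, which is needed to make the NDUFAF5 enzyme stable, was at 160.2, 141 and 123.8 CPM in control and 72.5, 78.7 and 75.2 in siControl RAS (log2 change -0.91, SE 0.11, adjusted p = 7.54e-09). NDUFAF4, a factor of early assembly steps, was at 33.6, 25.2 and 44.6 CPM and then 20.0, 14.2 and 17.5 (-0.99, SE 0.21, adjusted p = 0.000168). In both genes the highest RAS library stayed below the lowest control library. NDUFAF6 (-1.24), NDUFAF2 (-0.78) and NDUFAF3 (-0.50) were lower too, and NDUFAF7, a methyltransferase needed for complex I assembly, was higher at 0.85. NDUFAF6 and NDUFAF7 were at 7.741 to 12.66 and 7.818 to 9.223 CPM in control, and their calls rest on single libraries. NDUFAF6 was not called without control replicate 1 or siControl RAS replicate 2. NDUFAF7 was not called without control replicate 3 or siControl RAS replicate 2 or 3, nor with library size alone, nor without the third libraries of siControl RAS and both add-backs. Summed over the 8 factors, the level was 334.6, 312.1 and 317.1 CPM in control and 195.9, 198.96 and 193.2 in siControl RAS, which is 61.0% of the control mean. The lowest control library was above the highest RAS library. NDUFAF8 was the largest part of this sum, at means of 141.6 CPM in control and 75.5 in siControl RAS.

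Among the structural subunits of complex I, 13 of 37 were lower (35.1%, against 21.9% of all genes tested) and 4 higher (10.8%, against 24.0%). Their median was -0.13, against -0.26 for complex I with its assembly factors. None of the 7 core subunits, which carry the flavin and iron-sulfur clusters, was higher, and 4 were lower, among them NDUFV1 (-0.54), NDUFS1 (-0.34) and NDUFS8 (-0.33). NDUFV2 was at 0.14 and NDUFS7 at 0.03, neither called. The largest decreases were in accessory subunits. NDUFA9, which lies where the membrane and matrix arms meet, was at 114.1, 88.45 and 110.5 CPM in control and 60.21, 56.95 and 58.64 in siControl RAS (-0.83, SE 0.12, adjusted p = 3.85e-07). NDUFA12 fell by 0.80 on the log2 scale, NDUFS6 by 0.73 and NDUFC2 by 0.72. In the other direction stood the small single-span membrane subunits NDUFA1 (0.39), NDUFB1 and NDUFB11 (both 0.31), and the matrix-arm subunit NDUFA2 (0.35).

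In complex II, which has no subunit from mitochondrial DNA, only SDHA was called. This flavoprotein was at 82.2, 87.1 and 88.2 CPM in control and 61.4, 57.9 and 66.8 in siControl RAS (-0.47, SE 0.11, adjusted p = 0.000851). SDHA has near-identical pseudogene copies that hold 12.7% of the counts over the family, so its value is uncertain to the extent that the authors' counting split tags between them. The iron-sulfur subunit SDHB (-0.34, adjusted p = 0.239) and the membrane anchors SDHC (-0.30, adjusted p = 0.316) and SDHD (-0.0025, adjusted p = 0.996) did not pass. In complex III the Rieske iron-sulfur protein UQCRFS1 fell from 121.0, 116.3 and 113.8 CPM to 82.8, 73.8 and 72.7 (-0.61, SE 0.11, adjusted p = 2.39e-05). The small subunits UQCR11 (0.33) and UQCR10 (0.30) and the core protein UQCRC1 (0.29) were higher, while UQCRB (-0.10) and UQCRH (-0.04) were not called.

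Complex IV held the largest change of all members. NDUFA4L2, a paralog of NDUFA4 known as a hypoxia-responsive gene, was at 4.06, 1.65 and 1.33 CPM in control and 22.48, 16.49 and 14.79 in siControl RAS (log2 change 2.92, SE 0.37, adjusted p = 5.07e-08). NDUFA4 itself, a subunit of complex IV, was at 248.2, 240.8 and 263.5 CPM in control and 330.3, 356.3 and 303.2 in siControl RAS (0.40, SE 0.09, adjusted p = 0.000628). Neither gene's groups overlapped, and NDUFA4L2 remained the minor of the pair, at 0.931% ± 0.595 of their joint tags in control and 5.15% ± 1.06 in siControl RAS (SD, n = 3). COX7A1, the heart and muscle isoform of subunit 7A, was at 27.7, 25.9 and 28.5 CPM and then 52.03, 38.41 and 36.01 (0.63, adjusted p = 0.00249), whereas its ubiquitous counterpart COX7A2 fell by 0.31 (adjusted p = 0.00134). The COX7A1 share of both isoforms was 11.96% ± 0.839 in control and 20.5% ± 2.51 in siControl RAS (exact permutation p = 0.1, two-sided, the smallest that 3 libraries against 3 can give). COX7A2L, which joins complexes III and IV into supercomplexes, was at 0.01 and not called. COX7B (0.48), COX7C (0.24) and COX4I1 (0.18) were also higher, and COX5A (-0.41) and COX8A (-0.34) lower. The COX4I1 call was lost with upper-quartile factors, with library size alone, without the low-count filter, when control replicate 2 or 3 or siControl RAS replicate 1 or 3 was left out, and without the third libraries named above.

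In complex V, subunits of the catalytic head and the stalk were among the lower members. The beta subunit ATP5F1B was at 334.1, 341.1 and 350.2 CPM in control and 207.1, 213.4 and 219.9 in siControl RAS (-0.68, SE 0.08, adjusted p = 1.42e-08). ATP5PB, the b subunit of the peripheral stalk, was at 169.1, 189.9 and 175.5 CPM and then 104.6, 100.8 and 94.1 (-0.83, SE 0.09, adjusted p = 2.57e-09). The alpha subunit ATP5F1A fell by 0.29. The small epsilon subunit ATP5F1E was higher by 0.15 with overlapping groups, and 5.55% of the tags of its family lie on pseudogenes. ATP5IF1, the peptide that blocks the ATP synthase from running in reverse, was at 291.0, 326.3 and 290.9 CPM in control and 415.7, 379.6 and 414.6 in siControl RAS (0.41, SE 0.08, adjusted p = 5.05e-05). Per 100 tags of ATP5F1B there were 88.61 ± 6.42 tags of this inhibitor in control and 189.1 ± 11.5 in siControl RAS (SD, n = 3). Both genes moved, in opposite directions, and no library of one group reached the other (exact permutation p = 0.1, the smallest possible).

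Subunit c, which forms the rotating ring of the ATP synthase, comes from the genes ATP5MC1, ATP5MC2 and ATP5MC3, whose mature proteins are the same and whose import sequences differ. ATP5MC1 was at 128.3, 137.2 and 128.2 CPM in control and 215.5, 165.2 and 187.7 in siControl RAS (0.53, SE 0.09, adjusted p = 1.66e-05). ATP5MC3 was at 392.6, 374.7 and 400.1 CPM and then 332.9, 342.8 and 311.2 (-0.24, adjusted p = 0.0266), and ATP5MC2 was at 0.08 and not called. Accordingly ATP5MC1 made up 16.8% ± 1.02 of the subunit c tags in control and 23.7% ± 2.47 in siControl RAS, while the sum of the 3 genes was 784.2 ± 19.0 and 797.0 ± 33.4 CPM (SD, n = 3). For the share the exact permutation p was 0.1, and for the sum 0.6. The ATP5MC3 call was lost without control replicate 1 or 3, without siControl RAS replicate 1 or 3 and without the third libraries together, and the ATP5MC1 call under none of the 25 alternatives.

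**Figure D2:**
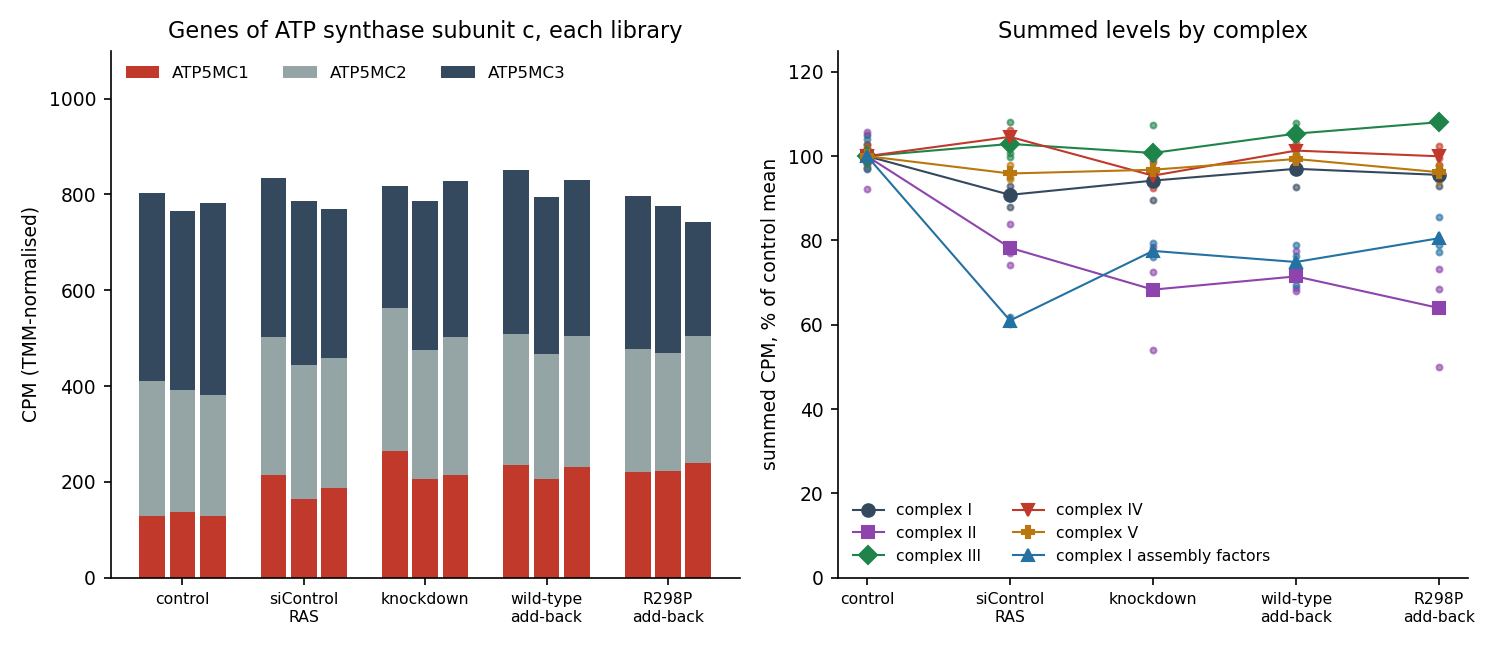
Left, stacked TMM-normalised CPM of the 3 subunit c genes in each library, by group: the ATP5MC1 part (red) is larger in every RAS library than in the control libraries at a similar total. Right, summed CPM of each complex and of the complex I assembly factors as a percentage of the control mean (large symbols group means, small points libraries): the assembly factors are at 61.0% in siControl RAS and 77.5% in knockdown. NDUFAF8 is the largest part of the assembly factor sum.

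Short and long members were compared next. Over the 90 tested members the log2 change in siControl RAS had a Spearman rank correlation of -0.47 with the longest coding length of the gene, against 0.0874 over 11722 other protein-coding genes. Over the 70 tested mitochondrial ribosome genes it was -0.136. In knockdown against control it was -0.384 for the members, -0.342 for the mitochondrial ribosome genes and 0.0996 for the other protein-coding genes. These are descriptions across genes, which are not independent replicates. Of 23 members with under 300 coding bases, 11 were higher and 3 lower (median 0.21). Of 42 with 300 to 599 bases, 5 were higher and 14 lower (median -0.12), and of 25 with 600 or more, 2 were higher and 13 lower (median -0.34). Among other protein-coding genes of under 300 bases, 33 of 181 were higher and 58 lower (median -0.05). With 300 to 599 bases 245 of 1199 were higher and 309 lower (median -0.106, near that of the members). With 600 or more 2633 of 10342 were higher and 2407 lower (median -0.00719). With every RAS library set against the same control mean, the correlation was -0.436, -0.48 and -0.385 in the 3 siControl RAS libraries and -0.263 to -0.498 in the other 9 RAS libraries, and each control library set against the remaining controls gave 0.0718, 0.0366 and -0.133. Coding length was not separated from the role of a subunit in its complex.

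**Figure D3:**
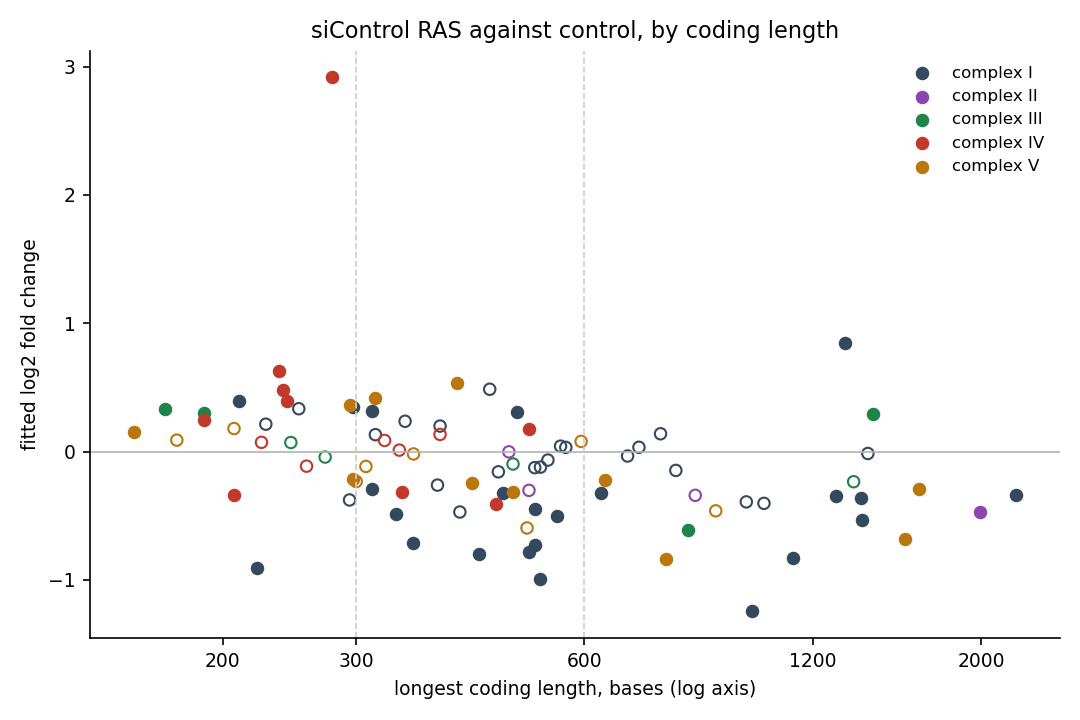
Fitted log2 fold change in siControl RAS against control (vertical axis) by the longest annotated coding length in bases (horizontal, log axis) for the 90 tested members, coloured by complex; filled points passed an adjusted p under 0.05. Left of the dashed line at 300 bases, 11 members are called higher and 3 lower; right of the line at 600 bases, 2 are called higher and 13 lower.

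Promoter sequence was compared with these calls because many respiratory chain genes are known targets of the transcription factor NRF1. The RefSeq promoter table (GRCh38.p14) matched 78 of the 98 members, and the 250 bases before each start site were searched on both strands. The letters GCGCATGC, which are part of the NRF1 site, were found in 12 of the 78 members (15.4%) and in 3.78% of all 14988 protein-coding promoters (4.96% of those of tested genes). None of the 14 matched members that were higher in siControl RAS held them, 1 of the 25 lower did, and 11 of the 34 not called did. The 12 members with the letters had log2 changes of -0.73 to 0.20 (median 0.015), and the 61 other matched and tested members -0.99 to 0.85 (median -0.15). A match describes these letters only, and whether NRF1 binds there was not tested. To show the letters, 6 windows of 30 bases are given, 5′ to 3′ on the strand of the gene with the match in capitals, read from the opposite strand in NDUFS7 and ATP5MC2. They are the 3 members where the letters read the same on both strands when extended by GC, the only one called in siControl RAS (NDUFS6), NDUFS7, which was called in knockdown, and the subunit c gene ATP5MC2.
ATP5F1C: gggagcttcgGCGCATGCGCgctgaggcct
NDUFB4: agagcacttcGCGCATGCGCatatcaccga
SDHD: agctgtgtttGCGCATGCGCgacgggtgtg
NDUFS6: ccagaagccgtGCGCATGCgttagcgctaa
NDUFS7: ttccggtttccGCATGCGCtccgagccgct
ATP5MC2: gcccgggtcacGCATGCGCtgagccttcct
The windows lie at chr10:7788145-7788174 (plus strand) for ATP5F1C, chr3:120596167-120596196 (plus) for NDUFB4, chr11:112086753-112086782 (plus) for SDHD, chr5:1801350-1801379 (plus) for NDUFS6, chr19:1383823-1383852 (plus) for NDUFS7 and chr12:53676105-53676134 (minus) for ATP5MC2. Their matches begin 22, 159, 110, 46, 73 and 40 bases before the start site, in that order. The ETS letters CCGGAAG were in 18 of the 78 members (23.1%) and 12.1% of all promoters, or in 24.7% of tested members and 16.7% of the promoters of tested genes. By call they were in 2 of 14 higher, 4 of 25 lower and 12 of 34 uncalled members. CCAAT was in 32.1% of members and 34.7% of all promoters, and in 7 of 14 higher, 5 of 25 lower and 10 of 34 uncalled ones. The GC box letters GGGCGG were in 52.6% of members and 57.2% of all promoters, or in 53.4% of tested members and 68.2% of the promoters of tested genes. Of the other letters searched, AAGATGGC (YY1) was in 1.28% of members and 1.38% of all promoters, ACGTG (hypoxia response) in 21.8% and 20.8%, TGANTCA (AP-1) in 5.13% and 4.98%, and the NF-kB motif in 2.56% and 1.82%.

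Lists of genes that work beside the chain are read here against all genes tested, of which 24.0% were higher and 21.9% lower in siControl RAS (45.9% called). Of 18 genes of the citric acid cycle, which feeds the chain with NADH and succinate, 12 were lower and 1 higher in siControl RAS (72.2% called, median -0.58), among them citrate synthase CS (-1.31), fumarase FH (-1.13) and the succinyl-CoA ligase subunit SUCLG1 (-0.74), with PDHX higher (0.62). Of 8 genes for cytochrome c and the enzymes that hand electrons to quinone, 4 were lower and 1 higher (62.5% called), with GPD2 at -1.49, CYCS at -0.73, CYC1 at -0.57 and SQOR at 0.55. Of 70 mitochondrial ribosome genes tested, 22 were lower (31.4%, above the 21.9% of all genes) and 2 higher (2.86%, below the 24.0%). In either direction 34.3% were called, under the share of all genes, and the median was -0.57. Among them MRPL24 was at -2.33, MRPS9 at -1.35, MRPS12 at -1.24, MRPS6 at 1.87 and MRPS24 at 0.77. Protein import through the TOM and TIM23 complexes had 8 of 16 lower and 2 higher (62.5% called), with TOMM40 at -1.10, TOMM22 at -0.85, TIMM21 at -0.81, TOMM7 at 0.43 and GRPEL1 at 0.36.

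Among assembly factors outside the rule, 17 of 53 were lower and 4 higher, or 39.6% called against 45.9% of all genes tested. By direction 32.1% were lower and 7.55% higher, against 21.9% and 24.0% of all genes tested. For complex I 5 of 11 were lower and none higher (TMEM126A -1.12, ECSIT -1.10, TMEM70 -0.77). For complexes II and III 3 of 10 were lower and 1 higher (BCS1L, which inserts the Rieske protein UQCRFS1, at -2.06, LYRM7 at -0.83, UQCC2 at -0.78, SDHAF2 at 0.39). For complex IV 7 of 26 were lower and 3 higher (TACO1 -0.97, SCO1 -0.80, COA6 -0.80, SURF1 0.74, COX20 and COX14 both 0.34), and for complex V 2 of 6 were lower and none higher (FMC1 -0.63, ATPAF1 -0.53). Ubiquinone synthesis had 2 of 13 lower (PDSS1 -2.44, COQ2 -0.87) and none higher, which is 15.4% called. The cristae-shaping MICOS genes had 2 of 8 lower (CHCHD3 -0.74, MICOS10 -0.42) and none higher, which is 25.0% called. Both are under the share of all genes called in either direction. Of all genes 21.9% were called lower, which is near the MICOS share and above that of ubiquinone synthesis. Of 14 regulators of mitochondrial gene expression and biogenesis tested, TFAM, which packages mitochondrial DNA, was lower (-0.41, adjusted p = 0.048) and YY1 higher (0.37), or 14.3% called.

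The second comparison sets RAS cells with METTL14 siRNA and vector against siControl RAS cells. Whether siControl cells also received a lentiviral vector is not given. Effects of METTL14 depletion and of the vector therefore cannot be told apart here. Knockdown libraries had 5 members higher and 6 lower than siControl RAS libraries (edgeR's quasi-likelihood test, adjusted p under 0.05, 3 against 3), which is 12.2% of the 90 tested, against 15.5% of all genes tested (7.47% higher and 8.06% lower). This share is not above the background. The members' median log2 change was -0.0042, with -0.0028 over all genes. The calls that held under every alternative that tested the gene were 4: NDUFS7 and NDUFAF8 higher, NDUFA4L2 and NDUFA4 lower. There were 25 such alternatives, and 24 for NDUFA4L2. The other 7 lay near the threshold, with adjusted p from 0.0297 to 0.0468, and were lost under 7 to 18 of the alternatives. All of these were lost without the third libraries of siControl RAS and both add-backs. Those of COX7B, COX6C, NDUFS8 and ATP5MC1 were also lost without knockdown replicate 1. Leaving out a single library lowered the 11 calls to 5 (siControl RAS replicate 2 or 3), 6 (knockdown replicate 2, R298P replicate 1 or 2) or 7 (siControl RAS replicate 1, knockdown replicate 3, wild-type replicate 1), and without knockdown replicate 1 there were 11, of which 7 were the same. With upper-quartile factors the split was 7 higher and 2 lower, and with library size alone 11 and 2.

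NDUFS7, a core subunit of complex I that carries an iron-sulfur cluster next to the quinone site, was at 19.2, 23.2 and 23.0 CPM in siControl RAS and 46.12, 29.01 and 38.41 in knockdown (log2 change 0.79, SE 0.19, adjusted p = 0.00267). In control it was at 18.44, 20.92 and 24.45 CPM, so the knockdown libraries stood above both other groups. NDUFAF8 was at 131.3, 104.8 and 105 CPM in knockdown against 72.5, 78.7 and 75.2 in siControl RAS (0.59, SE 0.11, adjusted p = 9.93e-05). Its knockdown libraries lay above all siControl RAS libraries and overlapped those of control, against which it was called lower at -0.32. Summed over the 8 NDUFAF genes, knockdown reached 77.5% of the control mean. This sum was 196 CPM in siControl RAS and 249 in knockdown. NDUFAF8 alone had means of 75.5 and 113.7 CPM, and it was the only 1 of the 8 called between these groups.

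NDUFA4L2 was at 7.721, 4.784 and 4.924 CPM in knockdown against 22.48, 16.49 and 14.79 in siControl RAS (-1.64, SE 0.34, adjusted p = 0.000653). Every knockdown library was above the highest control library (4.06 CPM), and against control the gene was called at 1.28 (adjusted p = 0.00872). That last call was lost without control replicate 2 or 3 or knockdown replicate 1, and when only the 2 groups were fitted. NDUFA4 was at 231.4, 268.1 and 234.1 CPM in knockdown against 330.3, 356.3 and 303.2 in siControl RAS (-0.43, SE 0.09, adjusted p = 0.000936), and was not called against control (-0.04, adjusted p = 0.801). COX7B (-0.29) and COX6C (-0.28), small subunits of complex IV, were lower as well. In all, 4 of 14 tested members of this complex were lower and none higher (28.6% called), against 15.5% of all genes tested. The COX7B call was lost under 17 of the 25 alternatives and the COX6C call under 12. Both were lost with upper-quartile factors and with library size alone. The summed level of complex IV, scaled by TMM factors, was 2743.8 ± 53.9 CPM in siControl RAS and 2502.3 ± 79.6 in knockdown (SD, n = 3). The median log2 change of complex IV was -0.124 with TMM factors and -0.0462 with library size alone.

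**Figure D4:**
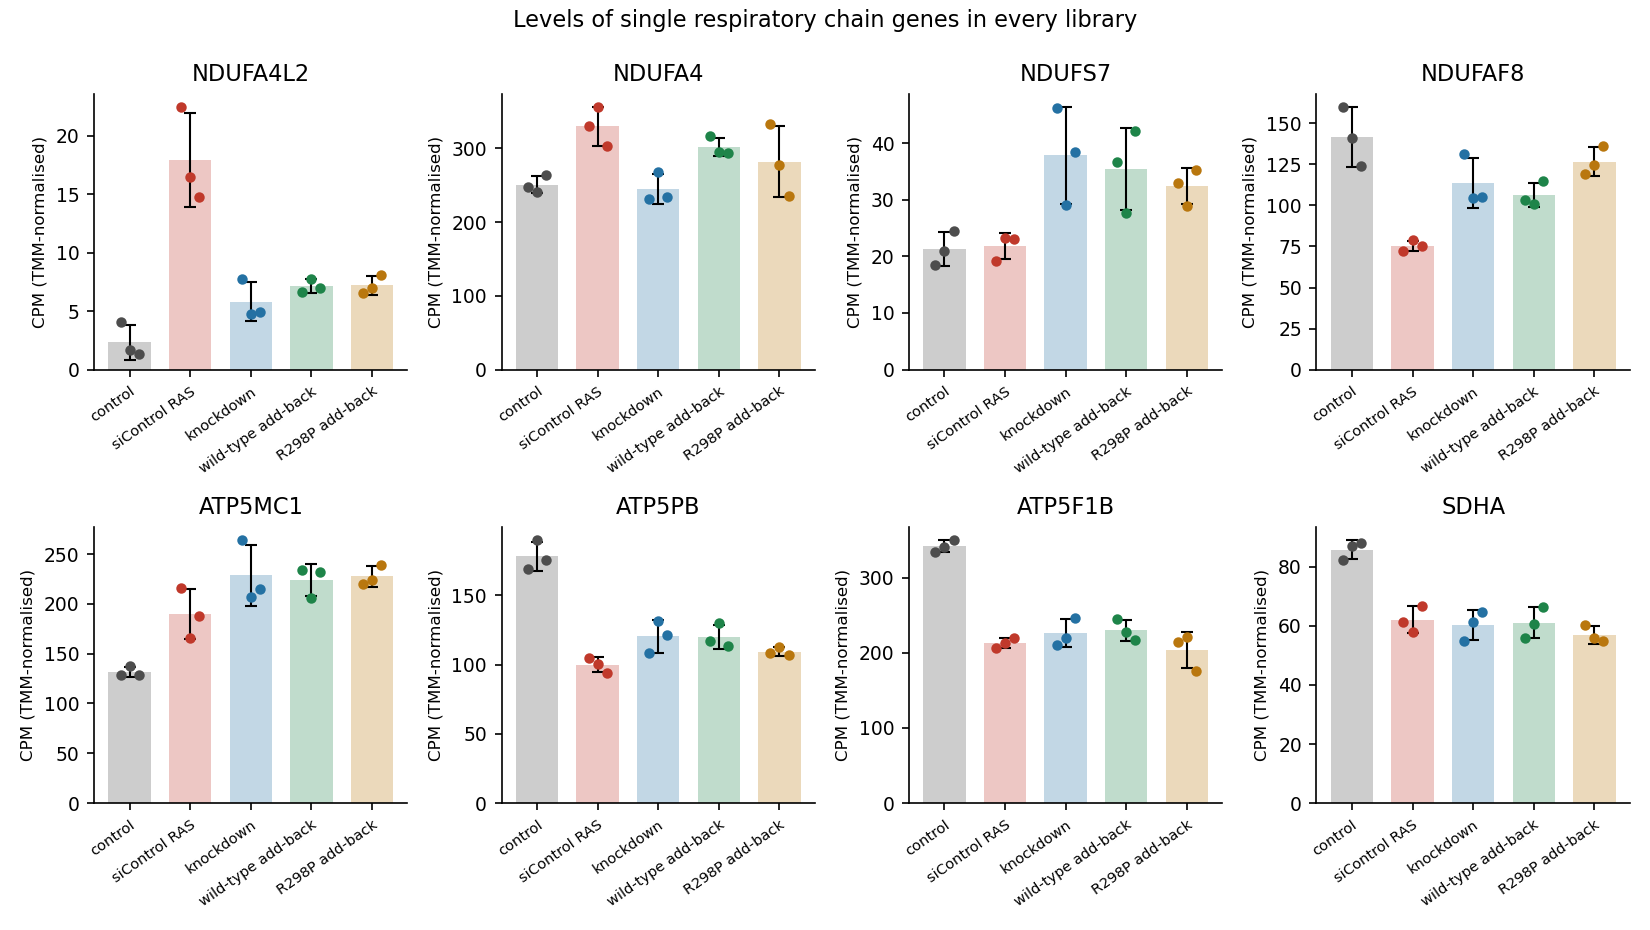
TMM-normalised CPM (vertical axis, from 0) of 8 members in each library (points), with group means (bars) and SD (whiskers, n = 3), in the 5 groups. NDUFA4L2 stands at 14.79 to 22.48 CPM in siControl RAS and at 8.11 or below in every other library, and NDUFS7 is at 24.45 or below in control and siControl RAS and at 27.69 or above in all libraries with METTL14 siRNA.

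The remaining calls of the knockdown comparison were NDUFS8 (0.36), ATP5PB (0.27) and ATP5MC1 (0.27) higher and NDUFB4 (-0.29) and NDUFV2 (-0.25) lower. The groups of ATP5MC1 overlapped. Values for siControl RAS against control and for knockdown against siControl RAS share the siControl RAS libraries, so they are given side by side and no agreement or reversal is read from them. They were -0.33 and 0.36 for NDUFS8, -0.83 and 0.27 for ATP5PB, 0.53 and 0.27 for ATP5MC1, and 0.48 and -0.29 for COX7B. The ATP5MC1 share of subunit c tags was 28.2% ± 3.55 in knockdown (SD, n = 3), with 32.28% in replicate 1 and 26.3% and 25.98% in the others, and without that replicate the ATP5MC1 call was lost (0.155, adjusted p = 0.335). Complex II had no called member, at -0.04 for SDHA, -0.22 for SDHB, -0.31 for SDHC and -0.25 for SDHD. Complex III had none either, with changes of -0.13 to 0.06.

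Against control, 10 members were higher and 21 lower in knockdown, or 34.4% of those tested (11.1% higher and 23.3% lower). Of all genes tested 36.0% were called in either direction (19.2% higher and 16.7% lower), so the members' total share was not above the background. This comparison shares its libraries with both others, so only its own values are given. The largest increases were NDUFA4L2 (1.28), NDUFS7 (0.83), NDUFAF7 (0.81), ATP5MC1 (0.80), ATP5MF (0.42) and NDUFB11 (0.41). The largest decreases were NDUFAF6 (-1.5), NDUFC2 (-0.84), NDUFAF2 (-0.66), NDUFA12 (-0.62), UQCRFS1 (-0.61) and ATP5F1B (-0.60). ATP5F1B was at 211.1, 220.2 and 246.9 CPM in knockdown and 334.1, 341.1 and 350.2 in control (adjusted p = 2.88e-07), and every knockdown and siControl RAS library lay below the lowest control library.

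Between knockdown and siControl RAS, 15.5% of all genes tested were called, and the related lists are read against that share. Of the 18 citric acid cycle genes, CS (0.68) and SUCLG1 (0.40) were higher and none lower (11.1% called). Of the 70 mitochondrial ribosome genes tested, MRPL27 (1.10), MRPL38 (0.68) and MRPL33 (0.47) were higher and none lower (4.29% called). Among the assembly factors outside the rule UQCC1 (0.76) and UQCC2 (0.67), needed for translation and assembly of cytochrome b, and the copper chaperone SCO2 (0.46) were higher and COX20 (-0.23) lower, 4 of 53 in all (7.55%). Within these, the list for complexes II and III had 2 of 10 called (20.0%), the only related list above the share of all genes called in either direction. Of all genes 7.47% were called higher, and the citric acid cycle list, with 11.1% higher, was above that share too. The import receptor TOMM22 was higher (0.42) and TFB1M, a methyltransferase of mitochondrial ribosomal RNA, lower (-0.86). No gene of ubiquinone synthesis, of MICOS or of the cytochrome c and quinone list was called.

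The last comparisons ask whether returning METTL14, wild-type or mutant, changed the members. No member was called between either add-back and vector or between the add-backs, although METTL14 itself was called in all of them. Of all genes tested, 0.621% were called for wild-type against vector (0.326% higher and 0.296% lower), 1.09% for R298P against vector (0.540% higher and 0.555% lower) and 0.0222% for R298P against wild-type (0.00740% higher and 0.0148% lower). At an unadjusted p under 0.05 there were 7, 8 and 4 of 90 members by edgeR, which is 7.78%, 8.89% and 4.44% against 7.55%, 9.03% and 4.92% of all genes. DESeq2 gave 7, 7 and 4 members at that level and limma-voom 8, 8 and 3, and both called none after adjustment. The smallest adjusted p of a member was 0.207, for NDUFA4 in the wild-type add-back, at 316.1, 295.6 and 293.9 CPM against 231.4, 268.1 and 234.1 with vector (log2 change 0.30, unadjusted p = 0.00256). Without the low-count filter this NDUFA4 difference was called (adjusted p = 0.0449 by edgeR), the only add-back call of a member under any alternative. In the R298P add-back NDUFA4 was at 332.7, 277 and 236 CPM, and its libraries overlapped those of both other groups.

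For the other firm knockdown calls the add-back libraries lay near those with vector. NDUFA4L2 was at 6.67, 7.78 and 6.95 CPM with wild-type METTL14 and 6.52, 6.985 and 8.11 with R298P, below the lowest siControl RAS library (14.79). NDUFS7 was at 36.58, 27.69 and 42.09 CPM with wild-type METTL14 and at 32.92, 28.96 and 35.28 with R298P. NDUFAF8 was at 103.1, 101 and 115 CPM with wild-type METTL14 and at 119.3, 124.5 and 136.4 with R298P. The median standard error of a member's log2 change was 0.109 in each of these comparisons. A p that misses the threshold does not show that a member was the same in both groups.

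**Figure D5:**
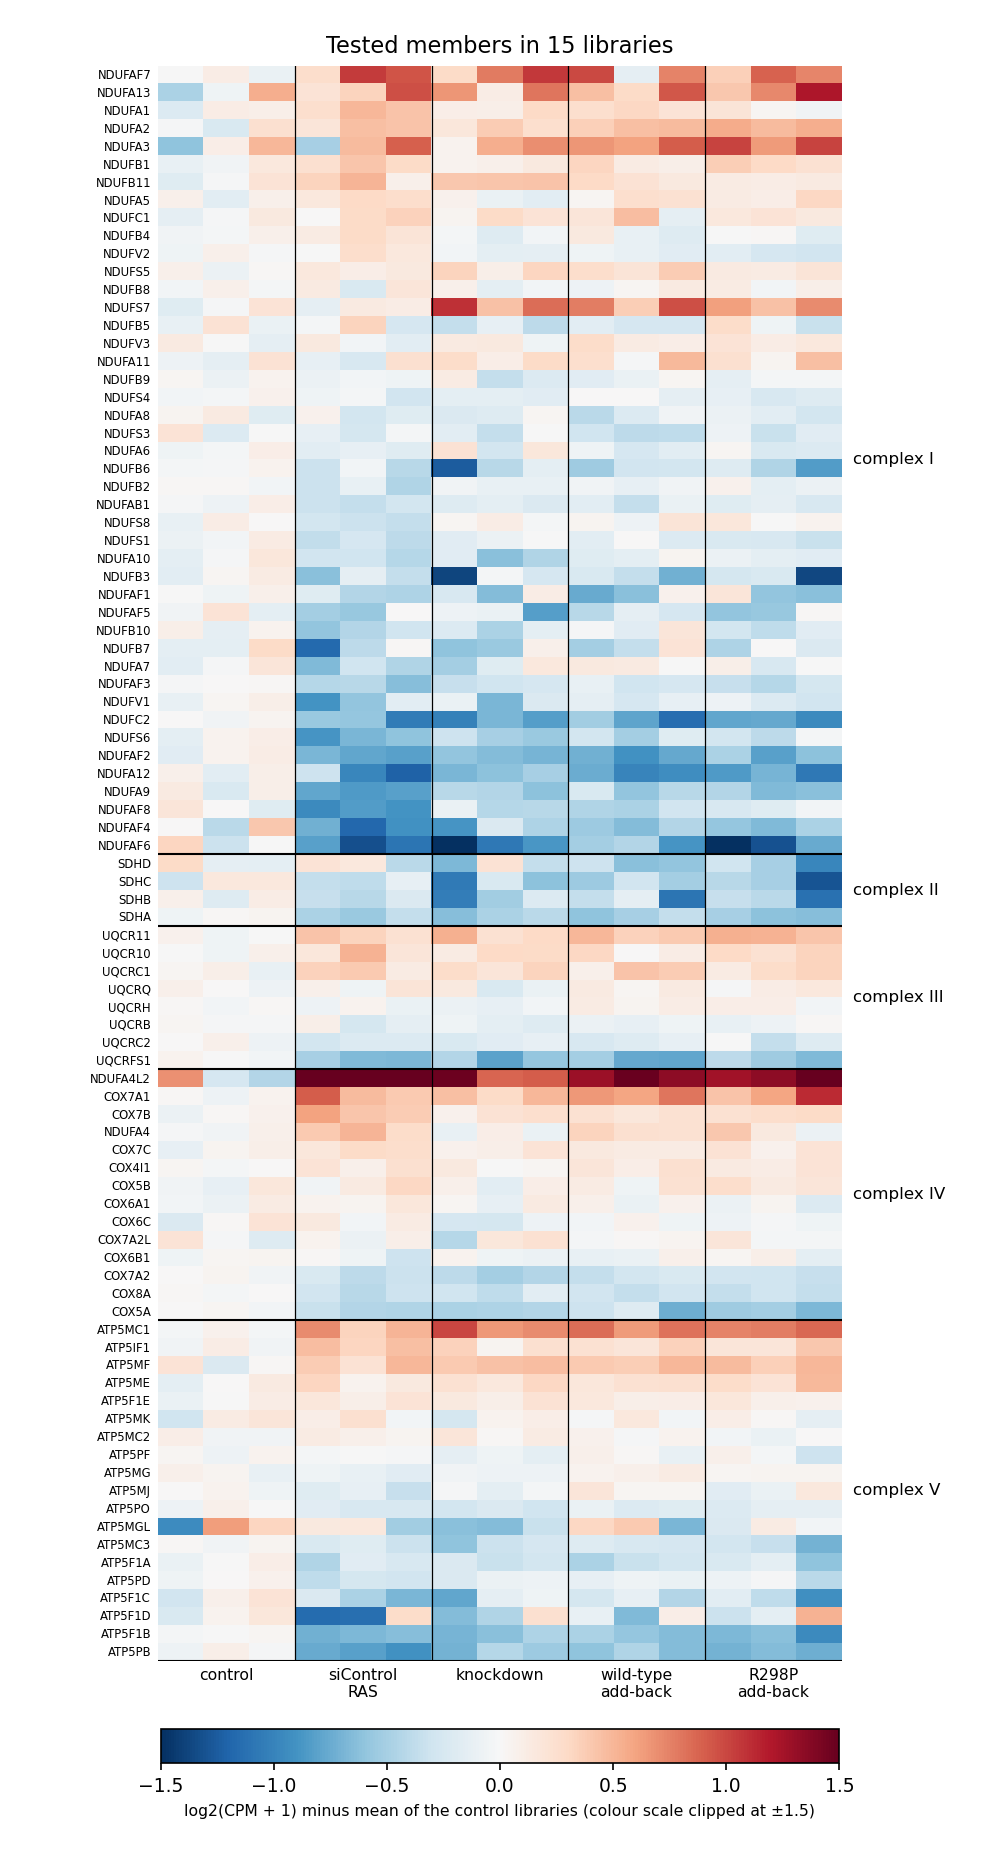
log2(CPM + 1) of the tested members but 1 (rows, by complex and ordered by their change in siControl RAS) in the 15 libraries (columns, 3 per group), minus the mean of the control libraries. Red is above and blue below control, clipped at 1.5; the lower rows of complex I, with the assembly factors NDUFAF8, NDUFAF4 and NDUFAF6, are blue in the siControl RAS columns, and the NDUFA4L2 row is red in all RAS groups.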

How the data were processed

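The 15 libraries were made with the Lexogen QuantSeq 3′ kit from IMR90 cells, per the labels' protocols. The authors deposited a table of whole-number counts per Ensembl gene, and the submitters' processing notes name Bowtie2, RSEM 1.2.12 and hg19 without saying what each was used for. No annotation, filter or strand setting is stated, so a gene and an overlapping antisense gene cannot be told apart. Symbols came from a reference list of gene names, and from GENCODE 29 where that list gave none. Biotypes came from GENCODE 29, and from RefSeq for genes absent there. Coding lengths came from GENCODE 29 and promoters from RefSeq.

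Genes were tested with edgeR 4.0.16 in R 4.3.3 (TMM factors, the filterByExpr low-count filter, robust quasi-likelihood F test, all 15 libraries in 1 fit with 1 coefficient per group and 10 residual degrees of freedom). P-values were Benjamini-Hochberg adjusted over all 13516 genes that passed the filter, and a gene was called at an adjusted p under 0.05 with no minimum fold change. CPM values are scaled by the TMM factors. The test was checked on simulated counts, in which far fewer genes changed than were called in siControl RAS. That check does not cover the choice of scaling, or changes as small as those of most members. Shares and sums of single measures were compared by two-sided exact permutation tests.

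Named members were, for each comparison, up to 6 called higher and 6 called lower with the largest change, the 2 highest of each complex and a list of isoform, inhibitor and complex II genes, and for each related list up to 3 called in each direction. Other genes named were chosen after their values were seen. The members, lists and tests were chosen with earlier results of these data known. Alternatives changed the normalization, the filter, the test (DESeq2 1.42.0, limma-voom in limma 3.58.1), the samples in the fit, the replicate block and each library in turn. A member that entered every count is not reported here by name or in the heatmap.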

Additional observations from a re-analysis of the deposited data

How the results depend on the processing

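No named call changed direction. NDUFA4L2 and NDUFAF6 were tested under 24 of the 25 alternatives. Of 17 named members called in siControl RAS against control, 4 lost the call under 2 to 8 of 25 alternatives (ATP5MC3, COX4I1, NDUFAF6 and NDUFAF7), of 11 in knockdown against siControl RAS, 7 lost it under 7 to 18, and of 12 in knockdown against control, 2 lost it under 4 each (NDUFA4L2 and NDUFAF7). For the values below that moved, the cause was not tested.

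With library size alone, siControl RAS had 8 members higher, with medians of -0.268 for the members, -0.41 for complex I, -0.471 for II, -0.135 for III, -0.0385 for IV and -0.36 for V. Knockdown against siControl RAS then had 11 higher and 2 lower, with medians of 0.074 for the members, 0.167 for complex I, 0.0446 for III, -0.0462 for IV and 0.122 for V, and the members' median against control was -0.191. Upper-quartile factors gave -0.299 for complex I in siControl RAS, 0.122 for complex I in knockdown, and 2 members lower in knockdown. Limma-voom gave 3 members higher in knockdown and -0.113 for complex V in siControl RAS, and fitting only the 2 groups gave 2 higher and 3 lower in knockdown. With genes of at least 10 CPM the siControl RAS medians were -0.145 for complex I and -0.109 for complex V, without the low-count filter complex III was at -0.0456, and complex I structural subunits alone were at -0.126. Without a filter 1 member was higher in the wild-type add-back (NDUFA4, adjusted p = 0.0449 by edgeR).

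Without the third libraries of siControl RAS and both add-backs, an alternative chosen after seeing the data, the siControl RAS medians were -0.0749 for the members, -0.193 for complex I and -0.0821 for complex V, and knockdown had 3 members higher and 2 lower. Leaving out 1 library at a time gave 12 to 18 members higher and 26 to 31 lower in siControl RAS and 2 to 6 higher and 2 to 6 lower in knockdown against siControl RAS. The siControl RAS medians then ranged from -0.283 to -0.203 for complex I, -0.393 to -0.259 for II, -0.00326 to 0.056 for III, 0.0472 to 0.176 for IV and -0.214 to -0.0919 for V. For complex I in knockdown the range was -0.0192 to 0.104.

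With the replicate number as a block there were 19 members higher and 31 lower in siControl RAS, and 7 higher and 6 lower in knockdown against siControl RAS. Against control the knockdown had 15 higher and 22 lower under the block, and no call of these comparisons was lost. The labels do not say that equal numbers share a culture or day, the 30 same-numbered pairs had correlations of -0.0541 to 0.0681 between their deviations, and 5 of 15 libraries correlated best with their own number, so the fits without the block were used.

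At these depths members of a few CPM, such as NDUFA4L2 in control, rest on few counts.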

Other observations

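Some complex I, II and V members were low in knockdown replicate 1 and R298P replicate 3 against their groups, in libraries that carry different constructs. These genes were picked after their values were seen. NDUFB3 was at 19.1, 50 and 42.51 CPM in knockdown and 42.46, 43.44 and 19.26 in R298P, with 45.79, 52.05 and 55.73 in control. SDHC was at 41.86, 75.31 and 57.12 CPM in knockdown and 65.84, 62.01 and 35.48 in R298P. ATP5F1C was at 60.35, 94.61 and 100.1 CPM and at 93.35, 79.9 and 54.74. The summed complex II level was 120.7 CPM in knockdown replicate 1 and 111.72 in R298P replicate 3, against 152.01 to 236.38 in the other 13 libraries.

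NDUFB2-AS1, an antisense gene at NDUFB2, was lower in siControl RAS (log2 change -1.88, adjusted p = 0.043 by edgeR), as was NDUFB2 itself (-0.29), and without the strand setting their tags cannot be told apart.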
